A study of Homo sapiens with 10 samples.

Results

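The long intergenic noncoding RNAs that carry a *LINC* number were examined in EA.hy926 cells, an endothelial line made by fusing umbilical vein endothelial cells with a lung carcinoma line. A *LINC* symbol was kept when it reached at least 1 cpm (a count scaled to library size, here FPKM times the transcript length in kilobases) in at least 2 of the 10 RNA-Seq libraries. This held for 143 of 1653 *LINC* symbols in the table (8.65%), of which 901 had a value above 0 in any library. Of the 143, *LINC02210-CRHR1* is annotated as protein-coding and *LINC00680-GUSBP4* as a pseudogene, and both are counted here by their symbol. The same filter kept 13371 of 27945 gene symbols of all kinds. For each symbol the RefSeq transcript with the highest mean level was used, and levels are given as FPKM, which scales reads by transcript length and library size. These RNAs were thus chosen by their measured level in the 10 libraries, so that whether an RNA is expressed is no finding here.

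The libraries form 4 groups. In 3 clonal lines the promoter of the noncoding RNA *VEGFA-LNC* had been removed on both alleles with CRISPR/Cas9, and in 3 other lines the promoter of *VEGFC-LNC*. Each deletion has 2 control libraries of its own, from cells that received the same gRNAs without Cas9 and passed through the same clonal selection. Each deletion library is thus 1 clone, so that a difference between clones and controls includes what sets single clones apart, and the deleted RNAs have no row under those names, so that the labels could not be checked on them. The comparison asks which RNAs differ when each of these promoters is removed. It cannot separate loss of the lncRNA from loss of the promoter DNA. In the study, degrading *VEGFA-LNC* with antisense oligonucleotides raised *VEGFA*, and targeting *VEGFC-LNC* in this way left *VEGFC* unchanged. Total RNA was depleted of ribosomal RNA before sequencing, and the libraries held between 6743977 and 24198930 reads.

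By background, LINC RNAs are transcripts with no long open reading frame that start outside protein-coding genes. Many are transcribed from enhancers or together with a neighbouring gene from a shared promoter, are degraded in the nucleus by the RNA exosome, and are known for low levels and for expression in few cell types. The endothelial identity of the cells was visible in their markers. *CDH5*, the cadherin of endothelial junctions, lay between 56.6 and 312 FPKM over the libraries, and *PECAM1* between 13.9 and 159 FPKM. *CLDN5* was listed at 0 in every library and *KDR*, the main VEGF receptor, reached at most 1.39 FPKM. The keratins *KRT8* (95.2 to 348 FPKM) and *KRT18* (101 to 436 FPKM), epithelial genes, were also high. Of the other 4 genes in the epithelial list, *EPCAM*, *CDH1* and *ALDH1A1* were at or under 0.505 FPKM and failed the filter. *AKR1B10* lay between 0.199 and 7.05 FPKM and was lower in the VEGFC-LNC than in the VEGFA-LNC controls (log2 fold change -4.28, limma FDR = 0.00877). Of 9 tested endothelial markers, limma called 0 in either deletion, with 0 at an unadjusted p under 0.05, and limma voom on reads recovered from the table also called 0. The clones of a deletion differed widely in some markers. *PECAM1* measured 13.9, 159 and 56.1 FPKM in the VEGFA-LNC clones. *VWF* measured 0.65, 8.78 and 4.74 FPKM there and 0.716, 3.41 and 3.88 in the VEGFC-LNC clones. *TIE1* was steadier (46.3 to 91.6 FPKM over the libraries). The 0 calls thus do not mean that the markers kept a steady level. Of 3 tested epithelial genes limma called 0 in either deletion. At an unadjusted p under 0.05, limma had 1 of them lower upon *VEGFA-LNC* deletion and 2 lower upon *VEGFC-LNC* deletion. limma voom called 1 of the 3 lower upon *VEGFA-LNC* deletion and 0 upon *VEGFC-LNC* deletion. Of the 5 leukocyte genes 4 lay at or under 0.123 FPKM and *LYZ* between 0.267 and 4.31 FPKM, and the 5 fibroblast genes summed to at most 0.699 FPKM in any library, with *COL1A1* called lower upon *VEGFA-LNC* deletion at no more than 0.332 FPKM.

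The LINC RNAs were expressed at low levels. The median of their mean FPKM over the libraries was 1.36 (quartiles 0.779 and 2.81), against 8.11 for protein-coding genes and 7.41 for all genes tested. Their median transcript length was 1868 bases. Summed over the 143 RNAs, the level of a library lay between 348 and 427 FPKM. Noncoding RNAs with antisense names and with LOC numbers had medians of 1.16 and 1.15 FPKM. The LINC RNAs also varied more between clones than all genes did. Their median SD of log2(FPKM + 0.1) was 0.36 among the VEGFA-LNC clones and 0.37 among the VEGFC-LNC clones, against 0.29 and 0.25 over all genes. It was 0.36 and 0.35 for the antisense-named RNAs and 0.40 and 0.41 for the LOC-named RNAs. Low level and wide spread were thus not particular to LINC RNAs. The SD of the LINC RNAs in the control pairs was 0.11 and 0.18, against 0.07 and 0.06 over all genes. Counting error is larger at low levels, and its part in these SDs was not tested.

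DEGs were called with limma at FDR < 0.05 and FC ≥ 1.5, where FC is the fold change in either direction, on log2(FPKM + 0.1), with p values adjusted over all genes tested. Upon *VEGFA-LNC* deletion 2 LINC RNAs rose and 8 fell. These 10 are 6.99% of the 143, where 2.74% of all genes were called, 0.733% of all genes higher and 2.01% lower. Among the 10, *LINC00648* and *LINC01260* passed the filter only through the group in which they were high, so that their calls follow in part from how they were chosen and the share cannot be read as support. Upon *VEGFC-LNC* deletion 0 rose and 2 fell (1.40%), where 0.486% of all genes were called (0.15% higher and 0.337% lower), and at an unadjusted p under 0.05 16 were higher and 17 lower. limma voom called 0 higher and 1 lower there. Clones and controls did not overlap for 66 of the 143 RNAs (46.2%) upon *VEGFA-LNC* deletion, beside 39.0% of all genes, and for 57 (39.9%) upon *VEGFC-LNC* deletion, beside 47.8%. At an unadjusted p under 0.05 the LINC RNAs stood at 24.5% and 23.1%, and all genes at 19.8% and 18.8%, in the order *VEGFA-LNC* and *VEGFC-LNC*.

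The median log2 fold change over the LINC RNAs was -0.19 upon *VEGFA-LNC* deletion, beside -0.06 over all genes, and 93 of 143 were lower. Upon *VEGFC-LNC* deletion it was -0.18, beside -0.09, and 88 were lower. The share of all genes that were lower was not counted, so that the 93 and 88 cannot be read as particular to LINC RNAs. The median size of the change regardless of sign was 0.46 and 0.44, beside 0.27 and 0.28. The control libraries of a deletion resembled each other far more than the clones did. A chi-square on their reads came to 3.75 and 1.53 per gene for the 2 control pairs, where 1 is sampling noise, and to between 18.3 and 137 for pairs of clones. Whether the controls of a pair are separate cultures is not stated. If each pair is averaged and counted as 1 sample, 0 LINC RNAs are called in either deletion with limma, with 16 and 12 at an unadjusted p under 0.05, so that the calls rest on a spread between control libraries that may be technical. Without either 1 of the VEGFA-LNC controls 0 LINC RNAs were called upon *VEGFA-LNC* deletion, and 4 without VEGFA-LNC clone 2, VEGFA-LNC clone 3 or either VEGFC-LNC control. Upon *VEGFC-LNC* deletion 0 were called without the first VEGFC-LNC control. Without the second, both falls (*LINC01324* and *LINC01425*) were lost and 1 other LINC RNA was called higher. Without any 1 of the VEGFA-LNC controls or the VEGFC-LNC clones 1 fall was called. The share of all genes called in these alternative fits was not counted. An exact permutation test on a single RNA cannot go below p = 0.1 with 3 clones against 2 controls.

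**Figure D1:**
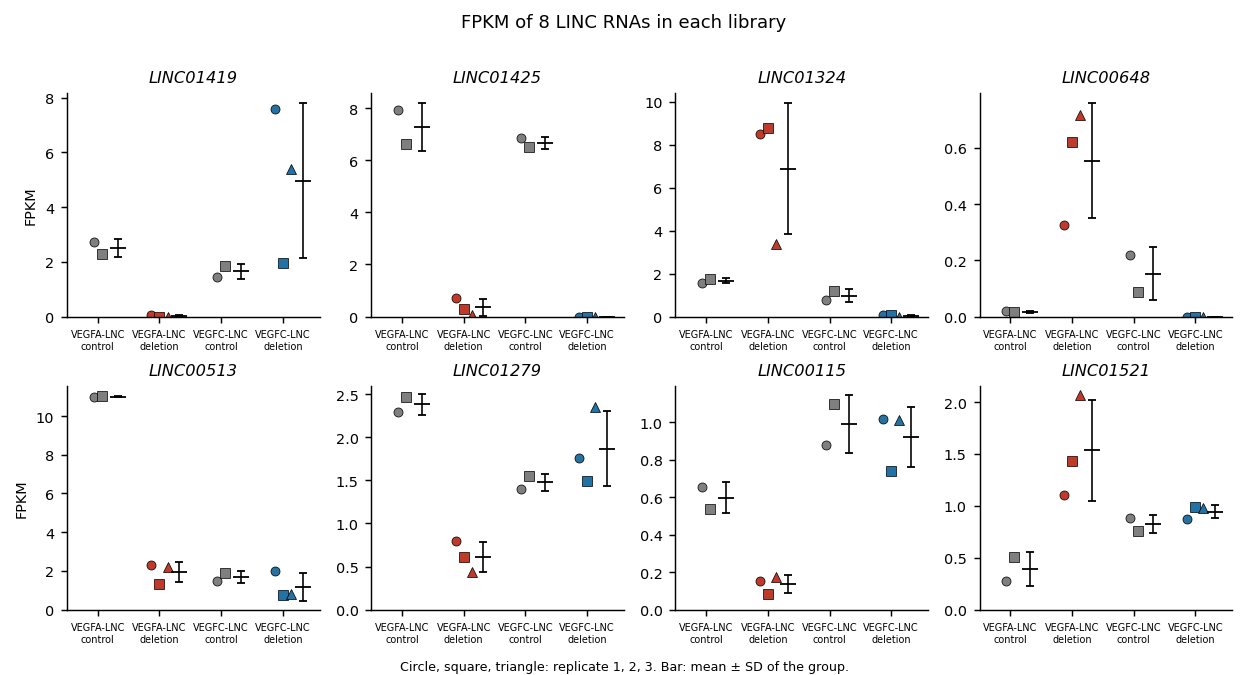
FPKM (y axis, linear from 0, its scale set per panel) of 8 LINC RNAs in the 4 groups, with 1 point per library, the symbol giving the replicate number, and bars for the group mean ± SD. LINC01425 lies between 6.51 and 7.92 FPKM in the 4 controls and between 0 and 0.712 in the clones, and LINC01324 is above all controls in the VEGFA-LNC clones and below them in the VEGFC-LNC clones.

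*LINC01425* was the one LINC RNA called in both deletions, and it fell in both. It measured 7.92 and 6.63 FPKM in the VEGFA-LNC controls and 0.712, 0.287 and 0.076 in the VEGFA-LNC clones, and 6.84 and 6.51 in the VEGFC-LNC controls and 0, 0 and 0 in the VEGFC-LNC clones. The 4 controls thus shared a level that no clone came near. The log2 fold change was -4.27 ± 0.51 (SE), FDR = 0.00753, upon *VEGFA-LNC* deletion and -6.08 ± 0.51 (SE), FDR = 0.00239, upon *VEGFC-LNC* deletion. In reads these are 217 in the VEGFA-LNC controls against 13 in the clones, a ratio scaled to depth of 21.2 (95% interval 12.1 to 40.4, counting error only). In the VEGFC-LNC set they are 168 against 0, which is at least 79.2-fold lower at a floor of 3 counts over the 3 clones. The difference between both effects did not pass the test (log2 1.81, FDR = 0.233). The nearest other tested gene, *LINC01687*, is 211742 bases away.

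*LINC01419* fell upon *VEGFA-LNC* deletion. It measured 2.73 and 2.28 FPKM in the VEGFA-LNC controls and 0.044, 0 and 0 in the clones, with 150 reads against 1 (ratio 190, 95% interval from 33.6, counting error only). In the VEGFC-LNC set it measured 1.46 and 1.85 FPKM in the controls and 7.56, 1.96 and 5.38 in the clones. All clones of that set lay above their controls, but this difference was not called. The log2 fold change was -4.52 ± 0.49 (SE), FDR = 0.00486, upon *VEGFA-LNC* deletion and 1.34, FDR = 0.209, upon *VEGFC-LNC* deletion. The difference between them, -5.86 (FDR = 0.00855), was the largest among the LINC RNAs that passed.

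*LINC01324* went the other way. It measured 1.57 and 1.74 FPKM in the VEGFA-LNC controls, 8.48, 8.78 and 3.35 in the VEGFA-LNC clones, 0.752 and 1.18 in the VEGFC-LNC controls and 0.053, 0.064 and 0 in the VEGFC-LNC clones. The VEGFA-LNC clones were all above and the VEGFC-LNC clones all below every control. The fall upon *VEGFC-LNC* deletion was called (-2.94 ± 0.43 (SE), FDR = 0.0275; 30 reads against 2), the higher level upon *VEGFA-LNC* deletion was not (1.87, FDR = 0.0604), and the difference was (4.81, FDR = 0.012). The call upon *VEGFC-LNC* deletion was lost without any 1 of its 3 clones and without any 1 of the 4 controls. *LINC00504* was likewise highest in the VEGFA-LNC clones and lowest in the VEGFC-LNC clones, with smaller gaps. It measured 0.654 and 0.693 FPKM in the VEGFA-LNC controls, 2, 2.1 and 1.47 in the VEGFA-LNC clones, 0.903 and 0.718 in the VEGFC-LNC controls and 0.478, 0.209 and 0.254 in the VEGFC-LNC clones. Neither deletion alone was called (1.32, FDR = 0.058, and -1.19, FDR = 0.117), but the difference of 2.51 was (FDR = 0.0306).

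*LINC00648* (chr14:48234156-48264217, minus strand, hg19) rose upon *VEGFA-LNC* deletion. It passed the filter through the VEGFA-LNC clones alone, so that its being higher there follows in part from how it was chosen. It measured 0.02 and 0.015 FPKM in the VEGFA-LNC controls and 0.326, 0.621 and 0.718 in the clones, 0.219 and 0.086 in the VEGFC-LNC controls and 0, 0 and 0 in those clones. The log2 fold change was 2.43 ± 0.36 (SE), FDR = 0.016, upon *VEGFA-LNC* deletion and -1.28, FDR = 0.142, upon *VEGFC-LNC* deletion. These rest on 83 reads against 2 in the VEGFA-LNC set, and on 0 reads in the VEGFC-LNC clones against 12 in their controls (at least 5.66-fold lower). *LINC02141*, with few reads as well, had 15 reads in the VEGFC-LNC controls and 0 in the clones (at least 7.07-fold lower), and its fitted difference was not called (-0.74, FDR = 0.246). *LINC00648*, *LINC01419*, *LINC01425* and *LINC02141* are also LINC RNAs that the study listed from these same samples, so that their direction here is no independent evidence of it.

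Over all LINC RNAs the effects of the 2 deletions differed for 5 (3.50%), 3 higher and 2 lower upon *VEGFA-LNC* deletion, where 1.45% of all genes were called (0.591% higher and 0.86% lower). These were *LINC00504*, *LINC00648*, *LINC01324*, *LINC01279* and *LINC01419*. With the clone number as a block 3 were called, and the share of all genes called there was not counted. *LINC01279* (chr3:112315641-112320816, minus strand) measured 2.3 and 2.46 FPKM in the VEGFA-LNC controls, 0.792, 0.608 and 0.433 in the VEGFA-LNC clones, 1.4 and 1.55 in the VEGFC-LNC controls and 1.76, 1.5 and 2.35 in the VEGFC-LNC clones. It fell upon *VEGFA-LNC* deletion (-1.83 ± 0.27 (SE), FDR = 0.0151), did not pass upon *VEGFC-LNC* deletion (0.30, FDR = 0.547) and differed between them by -2.13 (FDR = 0.033). It lies 2417 bases downstream of *CCDC80* on the same strand. *CCDC80* encodes a secreted matrix protein and had log2 fold changes of -1.0 (FDR = 0.139) and 0.03 (FDR = 0.97). The transcript of *LINC01279* found no match in RefSeq, and whether transcription from *CCDC80* adds to its reads was not tested.

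**Figure D2:**
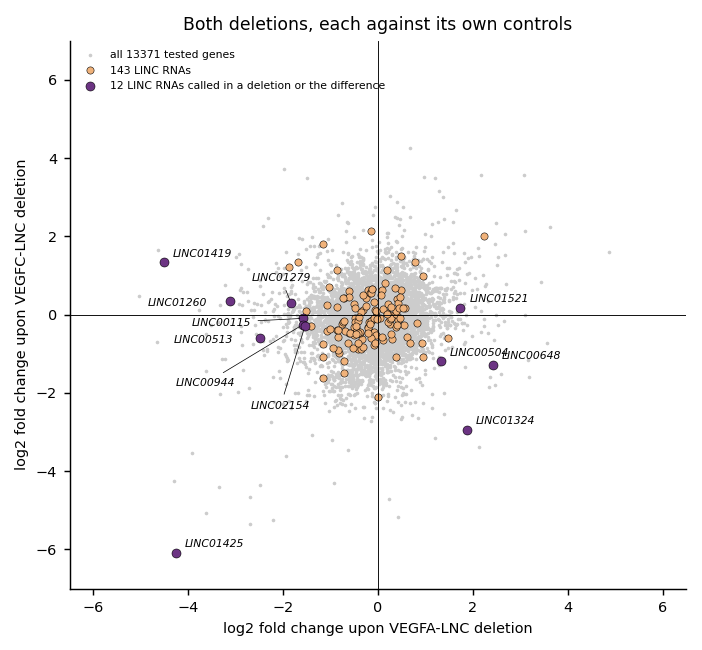
log2 fold change of each gene upon VEGFA-LNC deletion (x axis) and upon VEGFC-LNC deletion (y axis), each against its own 2 controls, for all 13371 tested genes (grey), 143 LINC RNAs (orange) and the 12 called in a deletion or the difference (purple). LINC01425 is low on both axes at -4.27 and -6.08, LINC01419 at -4.52 and 1.34, and LINC01324 at 1.87 and -2.94.

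Among the other RNAs called upon *VEGFA-LNC* deletion, 3 start head to head with another gene. *LINC00513* (chr7:130598223-130606705, plus strand) starts 154 bases from *LINC-PINT*, a p53-induced noncoding RNA, on the opposite strand. *LINC00513* measured 11 and 11 FPKM in the VEGFA-LNC controls, 2.28, 1.32 and 2.2 in the clones, 1.45 and 1.88 in the VEGFC-LNC controls and 1.99, 0.746 and 0.786 in the VEGFC-LNC clones. The VEGFA-LNC controls stood apart from the other 8 libraries, whose highest was 2.28. The fall was called (-2.49 ± 0.40 (SE), FDR = 0.0201), and *LINC-PINT* had -1.50 (FDR = 0.182), with 5.25 and 4.99 FPKM in the controls and 2.61, 0.842 and 2.35 in the clones. *LINC-PINT* was thus also lower in each VEGFA-LNC clone without passing the test.

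*LINC00115* starts 276 bases from *LINC01128*. It measured 0.656 and 0.538 FPKM in the VEGFA-LNC controls, 0.153, 0.082 and 0.175 in the VEGFA-LNC clones, 0.88 and 1.1 in the VEGFC-LNC controls and 1.02, 0.74 and 1.01 in the VEGFC-LNC clones. The VEGFA-LNC clones were the lowest libraries. It fell upon *VEGFA-LNC* deletion (-1.58 ± 0.27 (SE), FDR = 0.0246), while its partner had -0.72 (FDR = 0.0627). *LINC01521* (chr22:31742745-31747141, plus strand), 496 bases from the transcription factor gene *PATZ1*, was the other RNA that rose. It measured 0.275 and 0.504 FPKM in the VEGFA-LNC controls, 1.1, 1.43 and 2.07 in the clones, 0.887 and 0.761 in the VEGFC-LNC controls and 0.873, 0.984 and 0.978 in the VEGFC-LNC clones. The VEGFC-LNC libraries all lay above the VEGFA-LNC controls and below the VEGFA-LNC clones. The log2 fold change was 1.74 ± 0.30 (SE), FDR = 0.0253, and *PATZ1* had 0.38 (FDR = 0.133). The strand setting behind the table is not stated, so that reads at these shared starts may be split between partners in a way that cannot be checked.

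The start window of *LINC00513*, chr7:130597973-130598272 on the plus strand, is shown as a start shared with another noncoding RNA. It was read from the hg19 genome, from 250 bases before to 50 bases after the annotated start, and is written 5′ to 3′ on the strand of the gene. CpG dinucleotides, which cluster in the promoters of widely expressed genes, are in capitals, and this window holds 6.
LINC00513: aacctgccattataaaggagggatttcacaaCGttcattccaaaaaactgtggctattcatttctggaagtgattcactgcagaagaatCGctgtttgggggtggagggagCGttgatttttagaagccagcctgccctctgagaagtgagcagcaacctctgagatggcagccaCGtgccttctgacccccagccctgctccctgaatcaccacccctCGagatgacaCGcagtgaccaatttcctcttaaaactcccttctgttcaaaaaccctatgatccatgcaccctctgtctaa
Among the 15 LINC RNAs with a head-to-head partner within 1 kb, the median was 34 CpG per window. At least 15 CpG were found in 14 of these windows, and the 6 of *LINC00513* was the lowest count, so that it is not typical of them.

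The remaining 3 falls upon *VEGFA-LNC* deletion had in common that the VEGFA-LNC controls were the highest libraries of all. *LINC01260* (chr20:43285092-43300380, minus strand), which passed the filter through the VEGFA-LNC controls alone, measured 4.09 and 4.31 FPKM in them and 0.759, 0.377 and 0.2 in the VEGFA-LNC clones, beside 0.274 and 0.108 in the VEGFC-LNC controls and 0.387, 0.094 and 0.386 in the VEGFC-LNC clones. *LINC02154* (chrX:13284167-13321571, minus strand) measured 2.31 and 2.12 FPKM in the VEGFA-LNC controls, 0.711, 0.726 and 0.648 in the VEGFA-LNC clones, 0 and 0.087 in the VEGFC-LNC controls and 0, 0.038 and 0 in the VEGFC-LNC clones. *LINC00944* (chr12:127215247-127256808, minus strand) measured 2.43 and 2.44 FPKM in the VEGFA-LNC controls, 0.546, 0.792 and 0.934 in the VEGFA-LNC clones, 1.71 and 1.07 in the VEGFC-LNC controls and 0.724, 1.58 and 1.2 in the VEGFC-LNC clones. For *LINC01260* the VEGFC-LNC libraries overlapped the VEGFA-LNC clones, for *LINC02154* they all lay below them, and for *LINC00944* they overlapped them. The log2 fold changes were -3.11 ± 0.54 (SE), FDR = 0.0255, for *LINC01260*, -1.54 ± 0.31 (SE), FDR = 0.0391, for *LINC02154* and -1.59 ± 0.34 (SE), FDR = 0.0487, for *LINC00944*. *ADA*, the adenosine deaminase gene 4693 bases from *LINC01260*, had -0.50 (FDR = 0.392).

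The control sets themselves differed. Between the VEGFC-LNC and VEGFA-LNC controls 5 LINC RNAs were higher and 11 lower (11.2%), where 12.7% of all genes were called (2.93% higher and 9.74% lower), and 99 of 143 (69.2%) did not overlap, beside 82.9% of all genes. The 5 with the largest differences were *LINC02154* (-4.08), *LINC01260* (-3.95), *LINC01013* (-2.80, not called, FDR = 0.101), *LINC02085* (-2.74) and *LINC01615* (-2.73), all lower in the VEGFC-LNC controls. For 5 of the 10 RNAs called upon *VEGFA-LNC* deletion (*LINC00513*, *LINC00944*, *LINC01260*, *LINC01521* and *LINC02154*) both VEGFA-LNC controls lay outside the range of the other 8 libraries. This was so for 19 of 143 LINC RNAs (13.3%) and for 22.0% of all genes. The 10 were called for a gap between these controls and the VEGFA-LNC clones. A higher share among them thus follows in part from how they were chosen. The share among all genes called upon *VEGFA-LNC* deletion was not counted. Against all 4 controls together, 3 LINC RNAs were called upon *VEGFA-LNC* deletion and 2 upon *VEGFC-LNC* deletion. The share of all genes called in that fit was not counted. There *LINC02154* turned to 0.50 upon *VEGFA-LNC* deletion (FDR = 0.858).

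**Figure D3:**
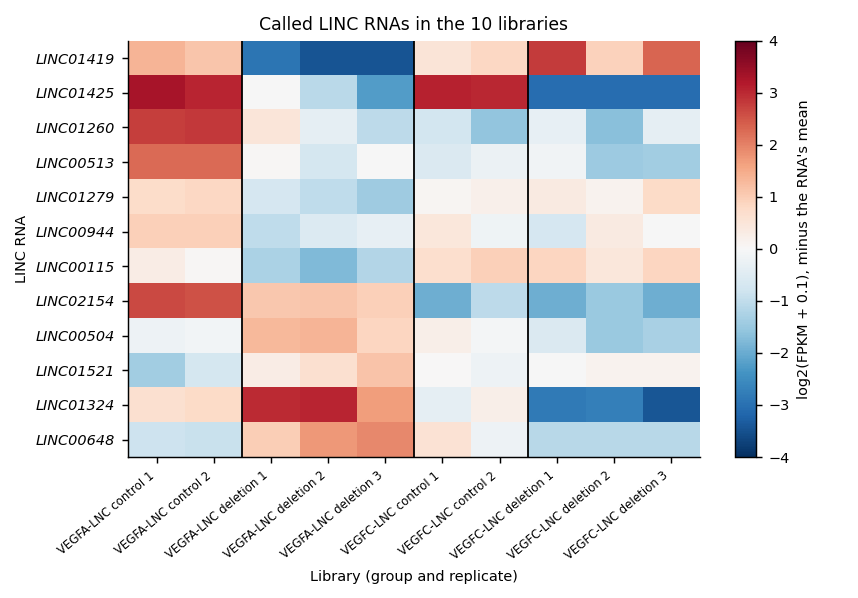
log2(FPKM + 0.1) of the 12 LINC RNAs called in a deletion or in the difference (rows), minus the mean of each RNA over the 10 libraries (columns), from blue (lower) to red (higher), with black lines between the 4 groups. LINC01425 is high in the 4 controls and low in the clones, and LINC00513, LINC01260 and LINC02154 are highest in the VEGFA-LNC controls.

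*LINC02085* (now *RDUR*) was highest in the VEGFA-LNC controls. It measured 2.28 and 2.08 FPKM in the VEGFA-LNC controls, 0.657, 0.291 and 0.702 in the VEGFA-LNC clones, 0.309 and 0.182 in the VEGFC-LNC controls and 0.305, 1.14 and 0.869 in the VEGFC-LNC clones. It differed between the control sets (FDR = 0.0171) and was called in neither deletion (-1.88, FDR = 0.0819, and 1.21, FDR = 0.245). *LINC01615* measured 1.94 and 1.37 FPKM in the VEGFA-LNC controls, 1.42, 1.83 and 1.22 in the VEGFA-LNC clones, 0 and 0.582 in the VEGFC-LNC controls and 0.88, 1.07 and 1.25 in the VEGFC-LNC clones. Its VEGFA-LNC clones overlapped their controls while both VEGFC-LNC controls lay below every other library.

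Clone 1 also stood apart from clones 2 and 3 in a way shared by the 2 deletions. The deviations of same-numbered clones from their group means correlated by 0.55, 0.41 and 0.22 over all genes, in the order of their numbers. Clones 2 and 3 were not clearly paired by number. VEGFA-LNC clone 2 with VEGFC-LNC clone 3 gave 0.26, and VEGFA-LNC clone 3 with VEGFC-LNC clone 2 gave 0.18. Clone 1 of either deletion correlated negatively with clones 2 and 3 of the other deletion (-0.54 to -0.30). Deviations from a group mean sum to 0 over its 3 clones. These negative values thus follow from the positive one of clone 1 and are no further observation. In both deletions the first clone lay above the other two for 30 LINC RNAs (21.0%; 26.0% of all genes) and below them for 22 (15.4%; 19.1% of all genes). By at least 2-fold in both on the log2(FPKM + 0.1) scale, 4 LINC RNAs were above (*LINC01116*, *LINC01444*, *LINC00520* and *LINC00857*) and 4 below (*LINC01297*, *LINC02328*, *LINC01588* and *LINC01197*). These are 2.80% each of the 143, beside 2.80% of all genes above and 1.71% below.

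*LINC00520*, also known as *LEENE*, an endothelial lncRNA that enhances *NOS3* expression, measured 9.56 and 8.88 FPKM in the VEGFA-LNC controls, 12.2, 2.79 and 3.99 in the VEGFA-LNC clones, 3.89 and 4.06 in the VEGFC-LNC controls and 5.9, 0.918 and 1.33 in the VEGFC-LNC clones. *LINC01116* measured 23.4 and 25.3 FPKM in the VEGFA-LNC controls, 24.2, 10.7 and 9.43 in the VEGFA-LNC clones, 19.4 and 20.8 in the VEGFC-LNC controls and 18.1, 8.41 and 8.15 in the VEGFC-LNC clones. In both RNAs the first clone of each deletion was near or above its controls and clones 2 and 3 lay below them. Their differences from the controls were not called (*LINC00520* -0.82, FDR = 0.608, and -0.98, FDR = 0.493). *LINC01297* was the reverse, at 0.101 and 0.311 FPKM in the VEGFA-LNC controls, 0.236, 3.33 and 2.02 in the VEGFA-LNC clones, 0.185 and 0.726 in the VEGFC-LNC controls and 0.863, 1.43 and 4.95 in the VEGFC-LNC clones. Its first clones lay among the controls or close to them. *LINC01197*, now *LETR1*, a lncRNA of lymphatic endothelial cells, measured 0.544 and 0.741 FPKM in the VEGFA-LNC controls, 0.391, 1.18 and 0.67 in the VEGFA-LNC clones, 1.15 and 0.842 in the VEGFC-LNC controls and 0.487, 1.57 and 1.62 in the VEGFC-LNC clones, and the first clone of each deletion was the lowest library of its set. Without the first VEGFA-LNC clone 27 LINC RNAs were called upon *VEGFA-LNC* deletion, 14 upon *VEGFC-LNC* deletion and 25 between the control sets. The share of all genes called in that fit was not counted, so that these counts cannot be read as particular to LINC RNAs.

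**Figure D4:**
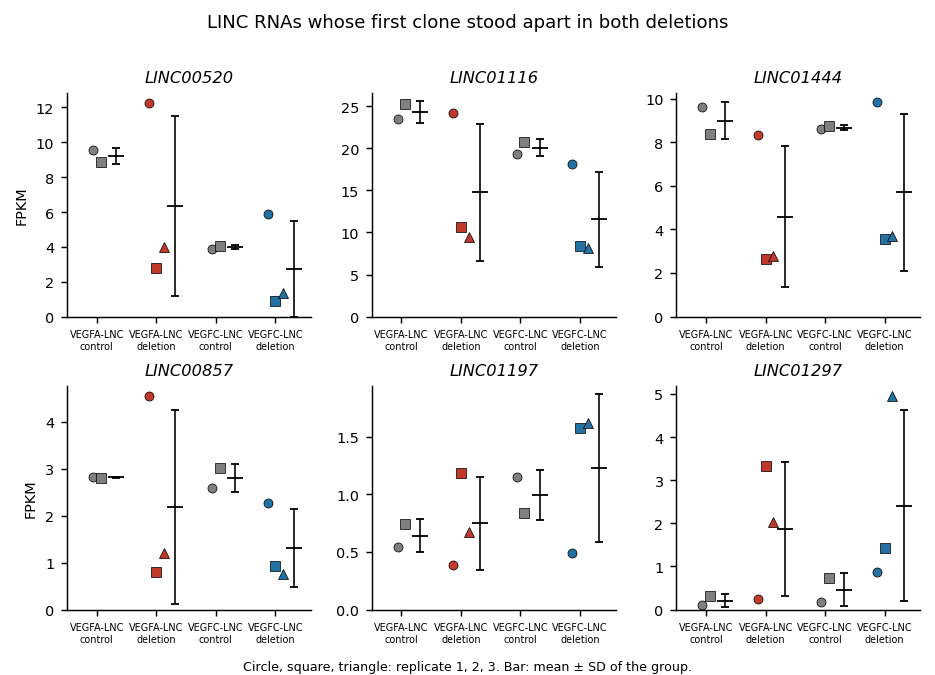
FPKM (y axis, linear from 0, its scale set per panel) of 6 LINC RNAs in the 4 groups, with 1 point per library (circles are the first replicates) and bars for the group mean ± SD. The first clone of each deletion lies above the other clones for LINC00520, LINC01116, LINC01444 and LINC00857 and below them for LINC01197 and LINC01297.

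*LINC01235* was the LINC RNA with the highest mean level. It measured 30.2 and 30.3 FPKM in the VEGFA-LNC controls, 11.4, 24.4 and 16.7 in the VEGFA-LNC clones, 17.5 and 17.3 in the VEGFC-LNC controls and 16.7, 24.2 and 19.6 in the VEGFC-LNC clones. The VEGFA-LNC clones lay below their controls in each library and the VEGFC-LNC clones overlapped theirs, and neither difference passed FDR 0.05 (log2 fold change -0.86, FDR = 0.145, and 0.19, FDR = 0.72). The next 7 by mean level were *LINC01116*, *LINC01234*, *LINC01358*, *LINC00339*, *LINC02407* (now named *LNCOG*), *LINC02310* and *LINC01578* (now *CHASERR*, which lies beside and limits the chromatin remodeller gene *CHD2*). Of these 8 RNAs limma and voom called 0 in either deletion, with 4 at an unadjusted p under 0.05 by limma upon *VEGFA-LNC* deletion and 1 upon *VEGFC-LNC* deletion. *LINC01578* spanned the narrowest range of them, 7.32 to 11 FPKM over the 10 libraries. *LINC01358* had the widest, with 6.51 and 8.52 FPKM in the VEGFA-LNC controls, 9.05, 14.8 and 15.9 in the VEGFA-LNC clones, 8.55 and 11.6 in the VEGFC-LNC controls and 20.02, 38 and 21.2 in the VEGFC-LNC clones. Both sets of clones lay above their own controls without overlap, and the log2 fold changes were 0.78 (FDR = 0.238) and 1.34 (FDR = 0.111).

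LINC RNAs known from other work were listed apart, 45 in all, of which 37 had a row and 24 passed the filter. limma called 0 of the 24 in either deletion. At an unadjusted p under 0.05, 1 was higher and 4 lower upon *VEGFA-LNC* deletion, and 3 higher and 4 lower upon *VEGFC-LNC* deletion. limma voom called 1 lower upon *VEGFA-LNC* deletion and 0 upon *VEGFC-LNC* deletion. Their median log2 fold changes were -0.23 and -0.17, beside -0.06 and -0.09 over all genes. *LINC00958*, linked in other work to *VEGFC* and lymphangiogenesis, measured 8.02 and 7.88 FPKM in the VEGFA-LNC controls, 9.89, 6.62 and 8.94 in the VEGFA-LNC clones, 6.7 and 5.87 in the VEGFC-LNC controls and 9.71, 8.89 and 10.6 in the VEGFC-LNC clones. The VEGFC-LNC clones lay above their controls and the VEGFA-LNC clones overlapped theirs, and neither was called (0.62, FDR = 0.151, and 0.07, FDR = 0.86).

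*LINC00339*, studied in endothelial cells and transcribed beside *CDC42*, spanned 10.5 to 17.2 FPKM and was called in neither deletion (0.25 and -0.25). *LINC00174* measured 1.6 and 1.42 FPKM in the VEGFA-LNC controls, 0.745, 0.479 and 0.807 in the VEGFA-LNC clones, 0.667 and 0.627 in the VEGFC-LNC controls and 0.394, 0.465 and 0.537 in the VEGFC-LNC clones. Both sets of clones lay below their controls, neither was called (-1.08, FDR = 0.061, and -0.41, FDR = 0.387), and the control sets differed (-1.11, FDR = 0.0339). *LINC00472* measured 1.46 and 1.52 FPKM in the VEGFA-LNC controls, 0.826, 0.436 and 0.609 in the VEGFA-LNC clones, 3.2 and 2.8 in the VEGFC-LNC controls and 2.58, 0.876 and 1.1 in the VEGFC-LNC clones, again with all clones below their controls and none called (-1.17, FDR = 0.167, and -1.08, FDR = 0.223). *LINC01013*, also known as an endothelial lncRNA, measured 0.814 and 0.759 FPKM in the VEGFA-LNC controls, 0.601, 0.121 and 0.3 in the VEGFA-LNC clones, 0 and 0.062 in the VEGFC-LNC controls and 0, 0.685 and 0.994 in the VEGFC-LNC clones. It was near 0 in the VEGFC-LNC controls and in the first VEGFC-LNC clone. *LINC00667* was the steadiest LINC RNA of all, at 3.25 to 4.47 FPKM over the 10 libraries.

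Noncoding RNAs outside the numbered set and the machinery of nuclear RNA decay were counted beside them. Of 39 other named lncRNAs that were tested 0 rose and 7 fell upon *VEGFA-LNC* deletion (*ZFAS1*, *MIR22HG*, *SNHG1*, *SNHG7*, *SNHG12*, *SNHG15* and *EPB41L4A-AS1*), beside 2.01% of all genes called lower. Of the 7, 4 carry the name of small nucleolar RNA host genes. Between the control sets 1 of the 39 was called higher and 10 lower in the VEGFC-LNC controls, and the 10 include each of the 7 except *SNHG1*. limma called 0 of the 39 upon *VEGFC-LNC* deletion, with 4 higher and 1 lower at an unadjusted p under 0.05, and voom called 0. *SNHG12* had the largest fall, from 38.2 and 37.7 FPKM in the VEGFA-LNC controls to 11.1, 8.49 and 13.8 in the clones (-1.79, FDR = 0.028), and it measured 12.7 and 11.5 FPKM in the VEGFC-LNC controls. The VEGFA-LNC controls of *SNHG12* thus stood apart from both. Of 25 tested genes of the RNA exosome and its nuclear adaptors, such as *EXOSC10* and *ZFC3H1*, limma and voom called 0 in either deletion. At an unadjusted p under 0.05, 2 were higher and 2 lower upon *VEGFA-LNC* deletion, and 0 higher and 7 lower upon *VEGFC-LNC* deletion. Their part in the levels of the LINC RNAs was not tested.

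The span of an RNA was taken as its highest minus its lowest log2(FPKM + 0.1) over the 10 libraries. It was under 1 for 28 LINC RNAs and over 3 for 17, and its median was 1.62 beside 1.07 over all genes. The 0.1 added to each value narrows the span of RNAs of low level, such as *LINC00467* (0.178 to 1.79 FPKM, span 2.76). The start windows of the LINC RNAs were poorer in CpG than those of other genes. The median window held 6 CpG, against 23 over all 13363 windows and 24 over protein-coding genes, and 49.5% GC against 63.0%. At least 15 CpG were found in 44 of 142 LINC windows (31.0%), against 72.7% of all windows. The TATA sequence TATAAA was present on either strand in 17.6% of LINC windows and 7.58% of all windows, and TGANTCA, the AP-1 motif, in 15.5% and 5.34%. CCAAT was found in 43.0% and 36.4%, CACGTG in 10.6% and 9.47%, and CCGGAAG in 12% and 16.4%. These shares describe letters in a window and not bound sites.

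The 28 LINC RNAs with a span under 1 had a median of 13 CpG, and the 16 with a window and a span over 3 had a median of 4. Over 142 LINC RNAs the number of CpG and the span correlated by -0.29 (Pearson) and -0.30 (Spearman). These points share their 10 libraries, differ in the number of reads behind them and depend on the value added, and the correlation is given as a description.

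**Figure D5:**
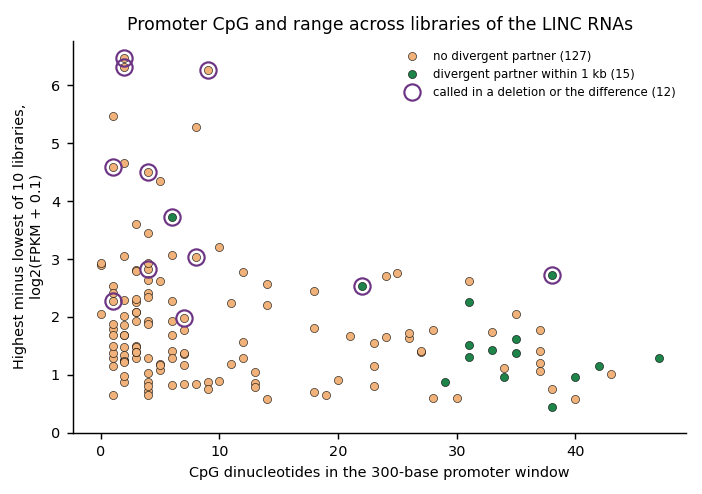
Number of CpG dinucleotides in the 300-base start window (x axis) and span over the 10 libraries, the highest minus the lowest log2(FPKM + 0.1) (y axis), for 142 LINC RNAs, with green points for the 15 that have a head-to-head partner within 1 kb and rings for the 12 called. RNAs with a span under 1 had a median of 13 CpG and those with a span over 3 a median of 4.

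Neighbouring genes were compared as well. Of the 143 LINC RNAs, 101 had another tested gene within 100 kb, 14 overlapped one and 15 had a head-to-head partner within 1 kb. The log2 fold change of the LINC RNA and of its nearest gene had the same sign for 71 of the 101 upon *VEGFA-LNC* deletion and for 67 upon *VEGFC-LNC* deletion. They correlated by 0.36 and 0.38 (Pearson, over the 101 LINC RNAs measured in the same libraries, given as a description). Over the 87 LINC RNAs that do not overlap their nearest gene the correlations were 0.36 and 0.38. Some nearest genes are themselves LINC RNAs of the set, so that a pair of neighbours can be counted from both sides. Pairs that share a start or overlap may share reads. The same was not counted for neighbouring pairs of other genes. The readthrough symbols *LINC02210-CRHR1* and *LINC00680-GUSBP4* overlap *LINC02210* and *LINC00680*, which were kept as well, so that their levels are uncertain, and 5 LINC RNAs have more than 1 copy of their transcript in the table.

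At the edge of the filter, the second-highest library of *LINC02141*, *LINC02328* and *LINC02009* reached 1.03 cpm each, and that of *LINC01783*, *LINC00910* and *LINC01446*, just outside, 0.982, 0.978 and 0.977 cpm. Of the 143 RNAs 72 were over 1 cpm in all 10 libraries and 101 in at least 1 library of all 4 groups. The number that passed through a single group was 6 (*LINC00467*, *LINC00648*, *LINC01260*, *LINC02009*, *LINC02141* and *LINC02328*). In RefSeq 142 matched by transcript, all except *LINC01279*. Of the 142, 24 now have another symbol, such as *LINC00638*, now *VESTAR*, a lncRNA that stabilizes *VEGFC* mRNA. *LINC00638* measured 0.731 and 0.422 FPKM in the VEGFA-LNC controls, 0.721, 0.862 and 0.868 in the VEGFA-LNC clones, 0.042 and 0.246 in the VEGFC-LNC controls and 0.142, 0.516 and 0.177 in the VEGFC-LNC clones, and it was called in neither deletion (0.47, FDR = 0.652, and 0.64, FDR = 0.485).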

How the data were processed

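RNA-Seq of ribosomal RNA-depleted total RNA from 10 libraries was analysed. Per the labels and the study's methods, the authors trimmed single-end reads with Trim Galore (version 0.4.4) and aligned them to GRCh37 with STAR (version 2.5.4b), and tested featureCounts gene counts with edgeR. The table used here, as deposited, holds FPKM per RefSeq transcript on hg19 with exonic lengths, and how it was made and its strand setting are not given in the sources used here. Of its 65572 rows, 42 that name no gene (0.0641%) were left out. FPKM times length gave whole reads for at least 99.99% of the values checked, from which the depth per library (6743977 to 24198930 reads) was taken.

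log2(FPKM + 0.1) was modelled by limma 3.58.1 under R 4.3.3, using lmFit and eBayes with a trend, in 4 groups (2 controls and 3 clones per deletion, residual degrees of freedom 6), with Benjamini-Hochberg adjustment over 13371 genes that reached 1 cpm in at least 2 libraries. Contrasts compared the clones with the controls of the same deletion, the effects of both deletions with each other, and the control sets with each other. Alternatives were a pseudocount of 1, no filter, median-of-ratios scaling, voom on recovered reads, the longest row per symbol, averaged control pairs, all 4 controls, a replicate block and leaving out each library. The fit was tested on simulated data. Same-numbered clones of both deletions correlated by 0.55, 0.41 and 0.22 over all genes. Clones 2 and 3 correlated by 0.26 and 0.18 across numbers as well, so that replicate numbers clearly pair only clone 1. Replicate numbers do not pair clones with the controls of the same deletion (-0.04 to 0.05), so that the block bears on the difference.

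Named RNAs were those called in a deletion, the difference or, for the 5 largest, the control sets, the 8 of highest mean FPKM, a list of LINC RNAs known from other work, those the study lists, and the 3 on each side of the filter. RNAs named for their first clones, their narrow range or their RefSeq name were chosen after their values were seen. The LINC RNAs and all gene lists were chosen with earlier results of these data known. Start windows (250 bases before to 50 after each start) were read from the hg19 genome, and some of their sequences are not reported here. Reads carry no molecular identifiers, so that intervals and floors cover counting error only. P-values measure the spread between these libraries, which may be technical for the controls.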

Additional observations from a re-analysis of the deposited data

Results flagged for a closer look

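The effects of the 2 deletions differed by the limma test of the difference for 5 LINC RNAs. The log2 fold change upon *VEGFA-LNC* deletion minus that upon *VEGFC-LNC* deletion was -5.86 for *LINC01419* and -2.13 for *LINC01279*. It was 4.81 for *LINC01324*, 3.71 for *LINC00648* and 2.51 for *LINC00504*. Each comparison has its own controls, and the clones of each deletion are 3. The 5 calls were lost without either VEGFA-LNC control and without either VEGFC-LNC control. Those of *LINC00504* and *LINC01279* were lost without some single clones as well, *LINC00504* in 7 of 10 and *LINC01279* in 8 of 10 fits that left out 1 library. *LINC00648* passed the filter through the VEGFA-LNC clones alone.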

How the results depend on the processing

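The number of LINC RNAs called upon *VEGFA-LNC* deletion (10 as reported) was 0 with the control pairs averaged, 3 against all 4 controls, 5 with the replicate block and 0 to 27 when 1 library was left out. Upon *VEGFC-LNC* deletion (2) it was 1 with a pseudocount of 1, 1 without the filter, 1 with voom, 0 with the control pairs averaged and 0 to 14 when 1 library was left out. For the difference (5) it was 9 with a pseudocount of 1, 3 without the filter, 0 with the control pairs averaged, 3 with the replicate block and 0 to 13 when 1 library was left out. Between the control sets (16) it was 6 without the filter, 0 with the control pairs averaged and 1 to 25 when 1 library was left out. The highest of each range was without the first VEGFA-LNC clone. The share of all genes called was not counted in any of these alternatives. Their counts thus cannot be read as particular to LINC RNAs. With 1 control left out, the lone control is assumed to vary like the other groups. *LINC02154* reversed against all 4 controls, to 0.50. Of 76 named values that were not called, 25 had the other sign in at least 1 alternative, the largest of them 1.21 in size. The calls of *LINC01419* upon *VEGFA-LNC* deletion and of *LINC01425* upon both deletions were kept in 7 of 8 other settings and when 8 of 10 libraries were left out 1 at a time. The other calls were kept in fewer settings. Upon *VEGFA-LNC* deletion *LINC00944* was kept in 2 of 8 and *LINC02154* in 4 of 8. *LINC00513*, *LINC00648*, *LINC01279* and *LINC01521* were kept in 5 of 8, and *LINC00115* and *LINC01260* in 6 of 8. Those of *LINC00115*, *LINC00513*, *LINC00944*, *LINC01260*, *LINC01521* and *LINC02154* were lost without VEGFA-LNC clone 2 and without clone 3. *LINC01324* upon *VEGFC-LNC* deletion was kept in 4 of 8. The cause of these changes was not tested. For the shallowest library 1 read is 0.148 cpm, so that levels near 0 are not resolved.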
